A study of Mus musculus with 8 samples.

Results

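The leukocyte marker genes are 47 genes whose RNA marks white blood cells, read here in mouse uterine epithelium. They were taken by gene symbol from a fixed list, all 47 were found among the 24346 symbols of the tables, and the values of a gene's transcripts were summed. By cell type they comprise 4 genes of all leukocytes, 7 of neutrophils, 20 of macrophages and monocytes, 11 of T and natural killer (NK) cells, 3 of B cells and 2 of mast cells. The libraries were 3 labelled control and 5 labelled Smad2/3 cKO, all RNA of uterine epithelium from mice of a mixed C57BL/6/129S6/SvEv background. The cKO mice carried floxed Smad2 (loxP sites around exons 9 and 10) and floxed Smad3 (around exons 2 and 3) on both copies, together with a Cre recombinase knocked into the progesterone receptor gene (Pgr-cre). The sources used here do not give the alleles of the control mice, the age or cycle stage of any mouse, or how epithelium was separated. Pgr-cre is active in cells that use the Pgr promoter, and per the labels also in ovary, oviduct, mammary gland and pituitary. Leukocytes that lie in the tissue are not described as carrying the deletion.

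Leukocytes enter the uterine lining in changing numbers through the reproductive cycle. Neutrophils are short-lived cells that kill microbes with granule enzymes and oxidants, macrophages engulf debris and present antigen, and NK cells and T cells kill or regulate other cells. RNA of an epithelial preparation holds leukocyte RNA when such cells sit between epithelial cells or are carried along with them, and some of the marker genes are also used by epithelial cells. In such bulk RNA, fewer cells of a type and less of the RNA in each cell cannot be told apart.

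The estimated depth was 42973000 to 54040000 mapped fragments per library. Values are FPKM, fragments set against transcript length and library depth, scaled to a common level across libraries (scaled FPKM), so levels of different genes can be set side by side. Smad2 was lower in all 5 cKO libraries, at 3.03 to 4.02, than in the controls, at 5.69 to 6.35 (log2 fold change -0.63 ± 0.10, limma adjusted p = 0.0055; two-sided exact permutation over 56 splits p = 0.0179, the lowest value open to this design). Smad3 did not pass, at 20.6 to 42.6 against 25.6 to 31.5 (limma adjusted p = 0.837; exact permutation p = 0.679). These values cover whole transcripts. The floxed exons were not read on their own, so the level of Smad3 does not tell whether its floxed exons were lost. The summed level of 20 epithelial markers was 6229 to 6760 scaled FPKM in control and 5307 to 8139 in cKO, with 2 of 20 called higher and 0 lower by limma (2 and 2 at an unadjusted p below 0.05), and none of these markers was listed at 0 in all libraries. Epithelial RNA was thus read in every library. Whether 1 animal gave 1 library is not in the labels, so p-values describe only how far these libraries differ, part of which may be technical. By title number, cKO 1 and cKO 2 form a series of their own, and the other 6 libraries are called the main title series. Values of single libraries are given in the order of their replicate numbers, which only name them.

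Most leukocyte marker genes were low. Of the 47, 27 reached 1 scaled FPKM in at least 3 libraries and were tested, and 20 did not. Of the 27, 6 had fewer than 3 controls at that level, and 1 of these 6, Gzmb, had none. Retnlg, with 1 control at that level, and Clec7a, with 2, are also among the 6. These genes met the filter only with cKO libraries. Counts over the tested genes thus describe them and do not speak for all 47. By limma with Benjamini-Hochberg adjustment over 11315 genes, Retnlg, Fcgr3 and Clec7a rose in cKO and Laptm5 fell. That is 3 of 27 higher (11.1%) where 7.27% of all tested genes were called higher, and 1 of 27 lower (3.70%) where 6.98% were called lower. Shares so near those of all genes are no result about the list. The median log2 fold change of the 27 genes was 0.53 against -0.0050 over all tested genes, and 21 of 27 (77.8%) were positive against 49.4%. The groups did not overlap for 5 genes that were higher (18.5%, against 11.7% of all tested genes) and for 1 that was lower (3.70%, against 12.9%). At an unadjusted p below 0.05, 9 were higher (33.3%, against 15.9%) and 3 lower (11.1%, against 15.6%). Among the main title series alone, Clec7a was called higher (1 of 26, where 6.43% of all tested genes were) and Laptm5 and Cd68 lower (2 of 26, where 5.30% were). The counts turned on single libraries. None was called without control 1 (6 higher and 2 lower at an unadjusted p below 0.05) or control 2 (5 and 2). Of calls higher, 2 were made without control 3, cKO 1 or cKO 2, 4 without cKO 3, 7 without cKO 4 and 1 without cKO 5. Of calls lower, 2 were made without cKO 2, 1 without cKO 3 and 0 without control 3, cKO 1, cKO 4 or cKO 5. Counts over all tested genes moved as well. Without control 1, 2 and 3 they were 578, 238 and 243 higher, in place of 823. Lower calls over all genes were then 437, 186 and 176, in place of 790. Without a single cKO library they were 618 to 935 higher and 598 to 892 lower. Fewer calls without a control are thus not particular to these genes.

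**Figure D1:**
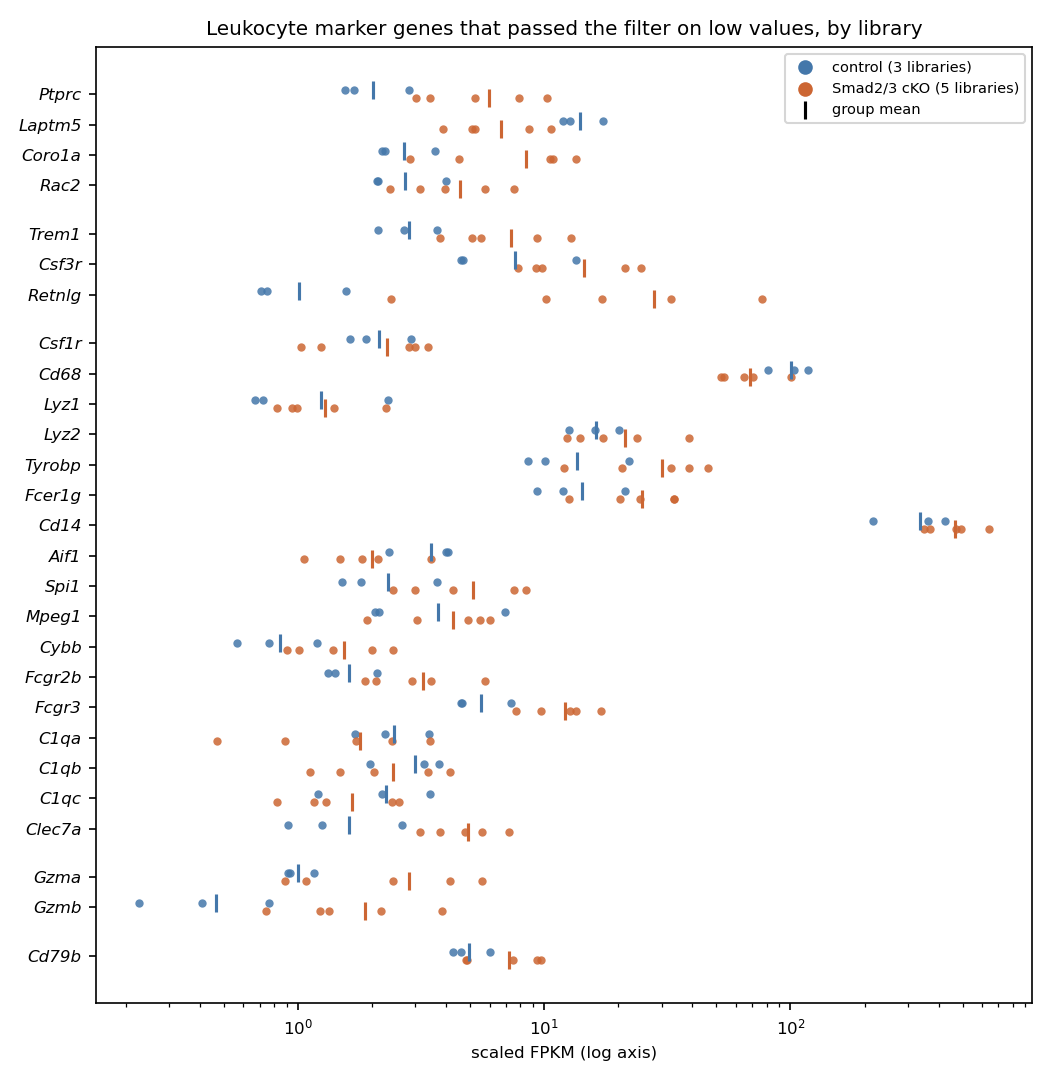
Scaled FPKM (log axis) of the 27 tested leukocyte marker genes in each library, with 3 control and 5 cKO points per gene and ticks at the group means, grouped by cell type. Cd14 has the highest value in every library, and Retnlg in cKO 3 lies above Cd68.

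The genes used by all leukocytes did not move one way. Ptprc encodes CD45, the tyrosine phosphatase on the surface of leukocytes (chromosome 1, 138062859 to 138175305 on mm10). Its scaled FPKM was 1.69, 1.56 and 2.83 in the controls and 3.43, 10.3, 7.90, 3.03 and 5.25 in the cKO libraries. All 5 cKO libraries lay above all controls, with cKO 4 and cKO 1 just above control 3. The change of 1.12 ± 0.34 (log2 fold change ± SE) missed the threshold (limma adjusted p = 0.0615, or 0.0356 without cKO 4, where it passed; two-sided exact permutation p = 0.0893). Only 3 of 20 alternative settings of the fit called Ptprc, and its limma adjusted p reached 0.216 without control 2.

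Laptm5, a lysosomal membrane protein gene of blood cells (chromosome 4, 130913334 to 130936148), went the other way. It read 12.8, 17.3 and 11.9 in the controls and 3.89, 10.7, 8.65, 5.09 and 5.22 in the cKO libraries. Every cKO library lay below every control, at group means of 14.0 ± 2.88 (SD, n = 3) and 6.71 ± 2.85 (SD, n = 5). Its log2 fold change was -1.02 ± 0.28 (limma adjusted p = 0.0436; exact permutation p = 0.0357). Within a library, the level of Laptm5 divided by that of Ptprc was 7.57, 11.1 and 4.21 in the controls and 0.994 to 1.68 in cKO. In controls, then, the lysosomal gene stood several times above CD45, and in cKO the pair stood at like levels. The call was lost without control 1 (adjusted p = 0.0897), control 2 (0.184), control 3 (0.104), cKO 1 (0.0692), cKO 4 (0.0758) or cKO 5 (0.085), always with a negative log2 fold change.

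Coro1a, which encodes the actin-binding protein coronin 1A, read 2.26, 2.20 and 3.62 in the controls and 4.50, 10.8, 13.5, 2.85 and 10.6 in the cKO libraries. Only cKO 4 fell within the control range, and the change of 1.21 ± 0.42 did not pass (adjusted p = 0.0931; 0.0236 without cKO 4). Coro1a was called in 2 of 20 alternative settings, with limma adjusted p up to 0.264. Rac2, the small GTPase that drives the neutrophil oxidase, was 2.72 ± 1.08 in control (SD, n = 3) and 4.55 ± 2.09 in cKO (SD, n = 5), with overlapping groups (adjusted p = 0.268). The sum of the 4 genes was 18.8 to 23.1 in control and 13.3 to 37.6 in cKO.

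**Figure D2:**
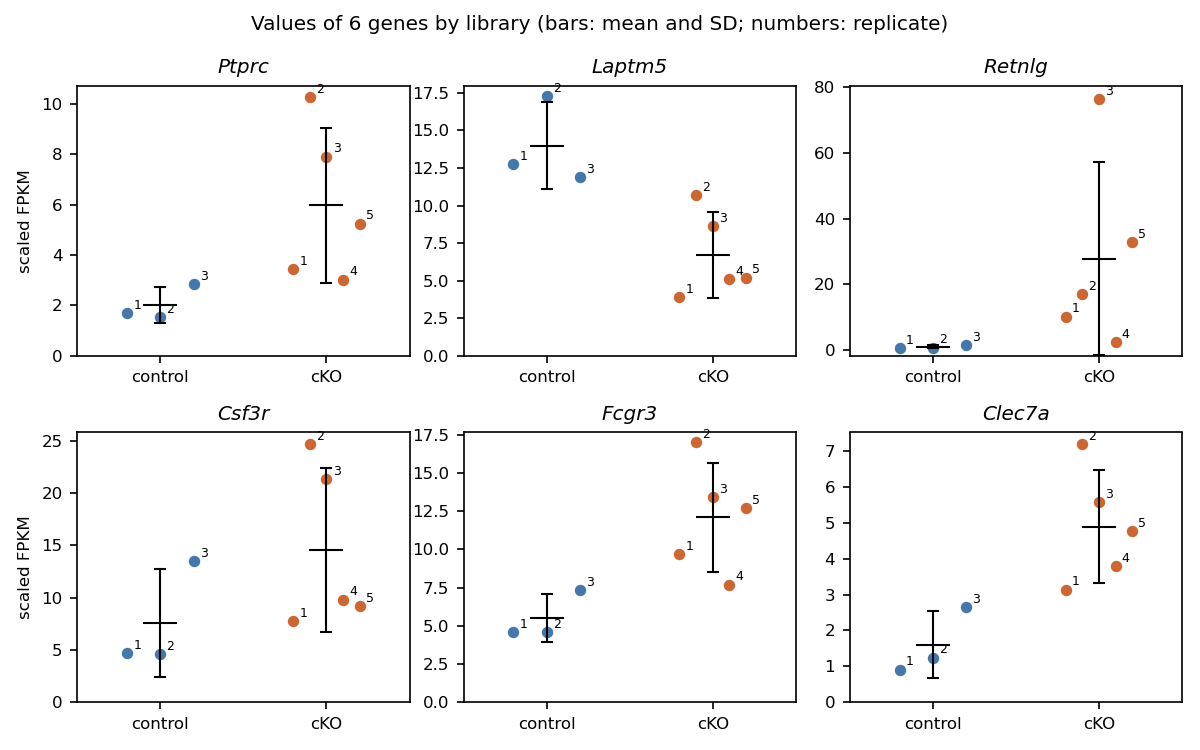
Scaled FPKM of Ptprc, Laptm5, Retnlg, Csf3r, Fcgr3 and Clec7a in each library, with replicate numbers beside the points and bars for the mean and SD of 3 control and 5 cKO libraries. Control 3 is the highest control for all but Laptm5, and cKO 2 or cKO 3 is the highest cKO library in every panel.

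Among the neutrophil genes, the mature-cell genes met the filter and the granule genes of their bone marrow precursors were low. Retnlg, which encodes the secreted resistin-like protein gamma of mature neutrophils (chromosome 16, 48872608 to 48874498), had the largest log2 fold change of the 27. It read 0.709, 0.752 and 1.57 in the controls and 10.2, 17.1, 76.5, 2.39 and 32.8 in the cKO libraries. Only control 3 reached 1 scaled FPKM, so Retnlg met the filter only with the cKO libraries, where it was high. All cKO libraries exceeded all controls, but they differed greatly among themselves, with cKO 4 nearest to control 3 and cKO 3 far above the rest. The log2 fold change was 3.17 ± 0.85 (limma adjusted p = 0.0392; exact permutation p = 0.143), and the group means, 1.01 ± 0.485 (SD, n = 3) and 27.8 ± 29.5 (SD, n = 5), differed 27.5-fold, or 15.5-fold without cKO 3.

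That call rested on most of the libraries. It was lost without control 1 (adjusted p = 0.102), control 2 (0.143), control 3 (0.107), cKO 1 (0.058), cKO 2 (0.0676) or cKO 5 (0.0772), and among the main title series alone (0.0922, log2 fold change 3.39). The log2 fold change of Retnlg ranged from 2.64 to 3.77 when each library was left out in turn.

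Csf3r encodes the receptor for the neutrophil growth factor G-CSF. It read 4.69, 4.59 and 13.5 in the controls and 7.81, 24.7, 21.3, 9.82 and 9.24 in the cKO libraries. Control 3 lay above 3 of the cKO libraries, and the change of 0.87 ± 0.45 did not pass (adjusted p = 0.217). Trem1, a receptor that amplifies inflammatory signals in neutrophils and monocytes, read 2.12, 2.70 and 3.68 in the controls and 5.07, 9.35, 12.9, 3.78 and 5.55 in the cKO libraries. Its groups did not overlap, though cKO 4 nearly met control 3, and the change of 1.03 ± 0.33 missed the threshold (adjusted p = 0.0729; 0.0382 without cKO 4). Trem1 was called in 2 of 20 alternative settings, with limma adjusted p up to 0.21. The ratio of Retnlg to Csf3r within a library was 0.116 to 0.164 in control and 0.243 to 3.59 in cKO, so these neutrophil genes were not in 1 proportion across libraries.

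The 4 granule genes were under the filter. Mpo, the myeloperoxidase gene, read 0.220, 0.118 and 0.125 in the controls and 1.87, 0.797, 0.607, 0.596 and 0.845 in the cKO libraries, with no overlap. Ngp, the neutrophilic granule protein gene, reached 0.814 in cKO 3 and 0.373 in cKO 5 and was listed at 0 in 3 libraries. Camp, the cathelicidin gene, was at most 0.188, and Elane, the neutrophil elastase gene, was at most 0.0269 and was listed at 0 in 5 libraries. The lower bound of the authors' 95% interval was above 0 in all 8 libraries for Mpo, in 3 for Ngp and in 0 for Camp and Elane. The sum of the 7 neutrophil genes was 7.87, 8.16 and 19.0 in the controls and 25.03, 52.1, 112, 16.6 and 48.9 in the cKO libraries, so that cKO 4 lay under control 3. Retnlg alone gave 76.5 of this sum in cKO 3 and 32.8 in cKO 5, the larger part of each. In the controls it gave 0.709, 0.752 and 1.57, so the sum does not stand for all 7 genes alike.

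**Figure D3:**
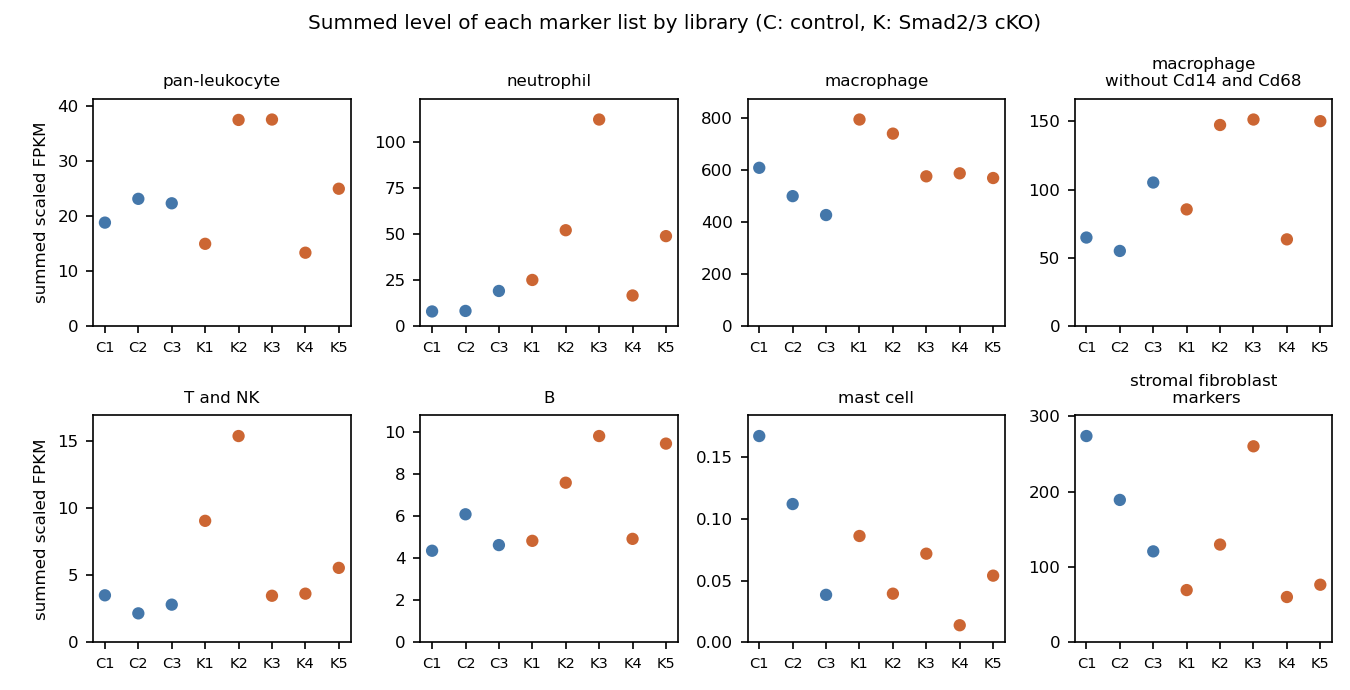
Summed scaled FPKM of each marker list in each library (C1 to C3 control, K1 to K5 cKO), with the macrophage list also drawn without Cd14 and Cd68 and the stromal fibroblast list beside it. The neutrophil sum runs from 7.87 to 19.0 in control and from 16.6 to 112 in cKO, and K4 is the lowest cKO library in the neutrophil and pan-leukocyte panels. Retnlg makes up most of the neutrophil sum in K3 and K5.

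The macrophage and monocyte genes were split. Fcgr3 encodes an activating receptor for the Fc part of IgG that is shared by macrophages, neutrophils and NK cells (chromosome 1, 171051169 to 171059403). It read 4.62, 4.57 and 7.35 in the controls and 9.68, 17.0, 13.4, 7.71 and 12.7 in the cKO libraries. The groups did not overlap, with cKO 4 closest to control 3. Its means were 5.52 ± 1.59 (SD, n = 3) and 12.1 ± 3.58 (SD, n = 5), with 0.99 ± 0.24 as log2 fold change (limma adjusted p = 0.0287). The call was lost without control 1 (adjusted p = 0.0902), control 2 (0.132) or cKO 5 (0.0583), and in the main title series alone (0.0643).

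Clec7a encodes dectin-1, the receptor of myeloid cells for fungal beta-glucan (chromosome 6, 129461591 to 129472779). It read 0.914, 1.25 and 2.66 in the controls and 3.14, 7.18, 5.57, 3.79 and 4.77 in the cKO libraries, again with no overlap. With 2 controls at 1 scaled FPKM or more, Clec7a met the filter only with cKO libraries. The means were 1.61 ± 0.924 (SD, n = 3) and 4.89 ± 1.58 (SD, n = 5), and the log2 fold change was 1.19 ± 0.27 (limma adjusted p = 0.0211). It passed within the main title series (0.0379), and its call was lost without control 1 (0.0712) or control 2 (0.101).

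Tyrobp and Fcer1g encode the adaptors DAP12 and the common Fc receptor gamma chain, which carry the signals of surface receptors, the Fcgr3 product among them, into myeloid and NK cells. Tyrobp read 8.59, 10.0 and 22.1 in the controls and 20.8, 46.4, 38.7, 12.0 and 32.7 in the cKO libraries. Control 3 exceeded cKO 1 and cKO 4, and the change of 1.07 ± 0.44 did not pass (adjusted p = 0.141; 0.0443 without cKO 4). Tyrobp was called in 1 of 20 alternative settings, with limma adjusted p up to 0.354. Fcer1g was 14.2 ± 6.36 in control (SD, n = 3) and 24.9 ± 8.99 in cKO (SD, n = 5), with overlap (adjusted p = 0.168). Fcgr2b, the inhibitory Fc receptor gene, was 1.61 ± 0.427 and 3.21 ± 1.55 (adjusted p = 0.148), and Fcgr1, the high-affinity receptor gene, stayed between 0.233 and 0.871 and was not tested. The mouse Fc receptor genes are alike in sequence, and the sources used here do not tell how shared reads were assigned.

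Other members of the macrophage list had levels near or below those of the controls, and they are set together here after their values were seen. Csf1r, the receptor for the macrophage growth factor CSF-1, was 2.13 ± 0.663 in control (SD, n = 3) and 2.29 ± 1.08 in cKO (SD, n = 5), a log2 fold change of 0.02 ± 0.29 (adjusted p = 0.966). The 3 genes of complement C1q, which lie side by side on chromosome 4 and are made mainly by macrophages, had negative log2 fold changes of -0.39 ± 0.35 for C1qa, -0.27 ± 0.30 for C1qb and -0.30 ± 0.29 for C1qc, none past the threshold (0 of 3 by limma, also at an unadjusted p below 0.05). Their sum was 4.87 to 10.6 scaled FPKM in control and 2.41 to 9.21 in cKO. Mrc1, the mannose receptor gene, was 0.145 to 0.602 in control and 0.0460 to 0.182 in cKO, and Cd163, the haemoglobin scavenger receptor gene, was at most 0.0260 and was listed at 0 in 5 libraries. Aif1, which encodes the macrophage actin-binding protein IBA1, was lower in 4 of 5 cKO libraries than in any control, at 1.99 ± 0.922 (SD, n = 5) against 3.47 ± 0.982 (SD, n = 3), and did not pass (adjusted p = 0.142). Across settings of the fit the sign of Csf1r turned in 8 of 19 alternatives and that of each C1q gene in 1 of 19, none with a call.

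The most abundant members were Cd14 and Cd68. Cd14, the co-receptor for bacterial lipopolysaccharide, read 425, 363 and 217 in the controls and 643, 491, 370, 471 and 348 in the cKO libraries, with overlap (adjusted p = 0.239). Cd68, a lysosomal glycoprotein gene, read 118, 80.7 and 104 in the controls and 64.9, 101, 54.0, 52.1 and 70.6 in the cKO libraries. In Cd68, cKO 2 alone lay within the control range, and the change of -0.58 ± 0.22 did not pass (adjusted p = 0.116; 0.0319 without cKO 2 and 0.0471 in the main title series). Cd68 was called in 4 of 20 alternative settings, with limma adjusted p up to 0.284. The levels of Cd14 and Cd68 exceeded that of Ptprc by far in every library, and the part of epithelial cells in them was not tested. The macrophage sum was therefore set mainly by these genes, at 426 to 608 in control and 569 to 794 in cKO. Without them, a choice made after the values were seen, it was 55.0 to 105 in control and 63.5 to 151 in cKO.

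The remaining macrophage members did not pass. Lyz2, the lysozyme gene of myeloid cells, was 12.7 to 20.1 in control and 12.3 to 38.9 in cKO (adjusted p = 0.613), and Lyz1, its neighbour and near copy, was 0.669 to 2.33 and 0.819 to 2.28 (adjusted p = 0.879), with reads of the pair hard to assign. Spi1, which encodes PU.1, the transcription factor that directs myeloid development, read 1.795, 1.51 and 3.68 in the controls and 2.99, 7.56, 8.41, 2.44 and 4.25 in the cKO libraries (adjusted p = 0.164). Mpeg1, the pore-forming perforin-2 gene, was 2.05 to 6.92 and 1.91 to 6.00 (adjusted p = 0.699). Cybb, the catalytic subunit gene of the phagocyte oxidase, was 0.567 to 1.20 and 0.904 to 2.43 (adjusted p = 0.206). In all, 2 of 17 tested macrophage members were called higher (11.8%, against 7.27% of all tested genes) and 0 lower (against 6.98%) by limma. At an unadjusted p below 0.05 there were 4 (23.5%, against 15.9%) and 2 (11.8%, against 15.6%), shares near those of all genes, with a median log2 fold change of 0.27.

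**Figure D4:**
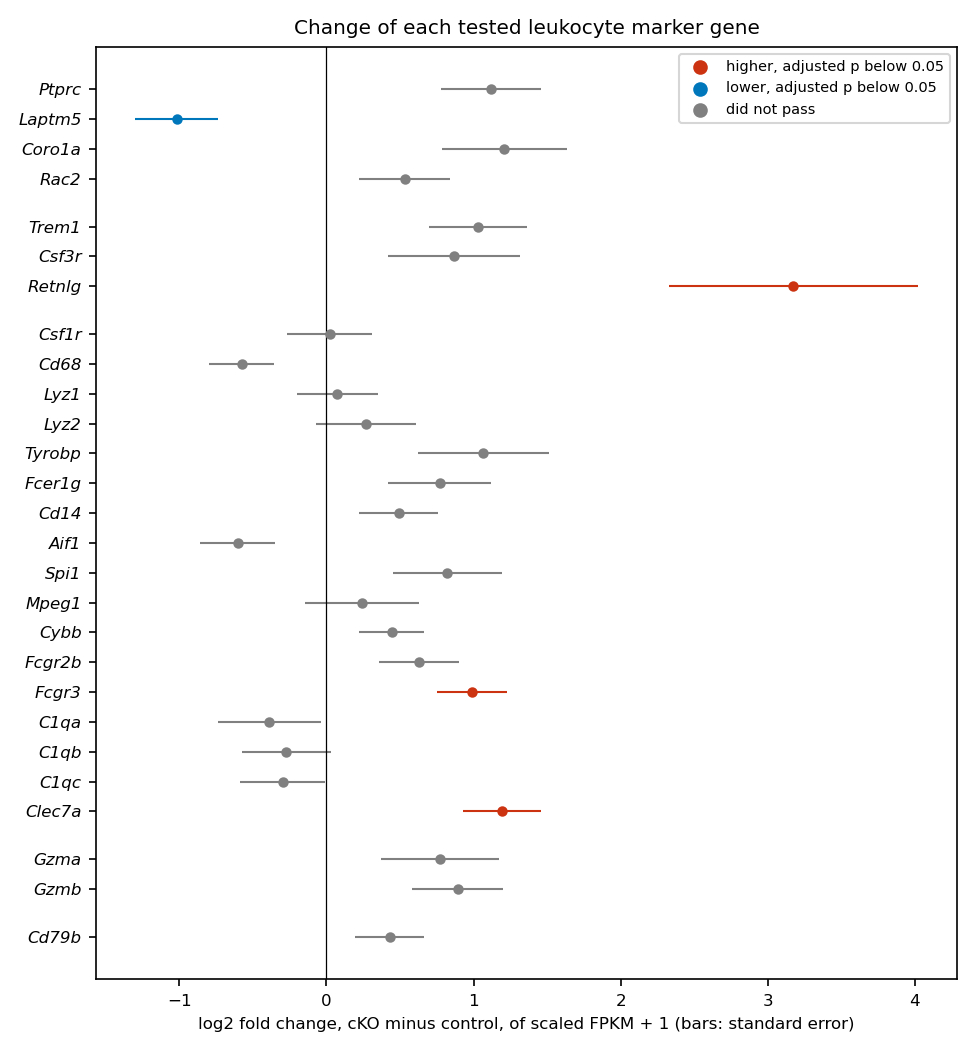
Log2 fold change of scaled FPKM + 1, cKO minus control, of each of the 27 tested genes with its standard error, coloured by the limma call. Retnlg, Fcgr3 and Clec7a lie to the right as called higher, Laptm5 to the left as called lower, and the C1q genes lie just left of 0.

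Promoter windows of the 5 tested genes that were higher without overlap are shown to let their sequences be set beside the values. Each is the 250 bases before the RefSeq start on GRCm38.p6, 5′ to 3′ on the strand of the gene, with capitals for GAGGAA or its reverse complement TTCCTC, the core of the site bound by PU.1. The windows are chr6:129472780-129473029 (minus strand) for Clec7a, chr1:171059404-171059653 (minus) for Fcgr3, chr1:138175306-138175555 (minus) for Ptprc, chr17:48232489-48232738 (plus) for Trem1 and chr16:48872358-48872607 (plus) for Retnlg.
Clec7a: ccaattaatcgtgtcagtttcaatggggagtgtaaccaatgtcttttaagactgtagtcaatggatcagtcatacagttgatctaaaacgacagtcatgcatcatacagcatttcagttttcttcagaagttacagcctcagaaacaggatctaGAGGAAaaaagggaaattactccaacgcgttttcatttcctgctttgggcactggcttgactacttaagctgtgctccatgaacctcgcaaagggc
Fcgr3: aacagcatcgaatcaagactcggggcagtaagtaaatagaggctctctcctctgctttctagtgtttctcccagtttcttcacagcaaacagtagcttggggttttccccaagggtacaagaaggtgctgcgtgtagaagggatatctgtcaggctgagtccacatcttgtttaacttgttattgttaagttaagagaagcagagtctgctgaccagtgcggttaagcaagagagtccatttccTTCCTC
Ptprc: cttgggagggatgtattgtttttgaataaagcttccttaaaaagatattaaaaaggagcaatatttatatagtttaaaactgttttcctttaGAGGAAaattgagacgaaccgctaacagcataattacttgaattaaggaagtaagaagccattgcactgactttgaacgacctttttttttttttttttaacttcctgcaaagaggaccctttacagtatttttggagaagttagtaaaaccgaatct
Trem1: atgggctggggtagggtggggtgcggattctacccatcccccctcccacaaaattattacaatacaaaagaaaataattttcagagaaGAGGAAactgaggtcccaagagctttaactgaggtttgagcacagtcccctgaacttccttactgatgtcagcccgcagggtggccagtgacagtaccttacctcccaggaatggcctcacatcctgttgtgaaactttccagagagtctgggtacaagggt
Retnlg: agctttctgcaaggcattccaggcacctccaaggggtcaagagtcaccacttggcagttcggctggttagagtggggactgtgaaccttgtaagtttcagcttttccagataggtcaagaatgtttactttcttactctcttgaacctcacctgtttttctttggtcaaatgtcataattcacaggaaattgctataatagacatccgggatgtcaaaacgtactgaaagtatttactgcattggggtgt
A match stood in 4 of these 5 windows, starting 96 bases before the start in Clec7a, 6 in Fcgr3, 158 in Ptprc and 162 in Trem1. Windows not shown of other genes without overlap held the motif as well, 1 match in Laptm5, which fell, and 2 in Mpo, which was not tested. The Retnlg window held no GAGGAA. The windows of Retnlg and Fcgr3 each held 1 TTGCNNAA, a form of the C/EBP site (N for any base; each motif was searched on both strands, and none contains another). Of 37 members matched to a RefSeq promoter by symbol, 18 (48.6%) held GAGGAA in such a window, against 23.1% of 27025 promoters, 1 per symbol. For TTGCNNAA it was 6 of 37 (16.2%) against 9.55%, and for GTCTAGAC, the palindrome bound by SMADs, 0 of 37 against 0.174%. Members without an entry were Rac2, Csf1r, Tyrobp, Cd14, Spi1, C1qa, Cd4, Klrd1, Cd79b and Ms4a1.

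T cell genes were low in these libraries. Cd3d, Cd3e and Cd3g encode chains of the CD3 complex that signals for the T cell receptor, and they lie together on chromosome 9. Their summed level was 0.351, 0.315 and 0.221 in the controls and 0.187, 0.913, 0.698, 0.182 and 0.392 in the cKO libraries, so the groups overlapped. Cd4, the co-receptor gene of helper T cells, was at most 0.357, in cKO 2, and Cd8a, that of cytotoxic T cells, was at most 0.390, in the same library. None of these 5 genes was tested.

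The granzyme genes Gzma and Gzmb were above each CD3 gene in every library and differed by library. Gzma, which encodes granzyme A, read 1.16, 0.909 and 0.928 in the controls and 4.16, 5.60, 0.883, 1.08 and 2.44 in the cKO libraries. Thus cKO 1 and cKO 2 were highest and cKO 3 lay below all controls, unlike in the neutrophil genes. The change of 0.77 ± 0.40 did not pass (adjusted p = 0.221), and in the main title series it was 0.25. Gzmb, which encodes granzyme B, read 0.764, 0.226 and 0.409 in the controls and 2.18, 3.85, 0.745, 1.34 and 1.23 in the cKO libraries (log2 fold change 0.89 ± 0.31, adjusted p = 0.0908; 0.0408 without cKO 3). It met the filter through the cKO libraries alone, and was called in 2 of 18 alternative settings (limma adjusted p up to 0.28).

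Of the NK genes that were not tested, 4 had their highest value in cKO 2. Nkg7, a granule membrane protein gene of NK and cytotoxic T cells, read 1.56 in cKO 1 and 2.45 in cKO 2, against 0.282 to 0.783 in the other 6 libraries. Prf1, the perforin gene, was 0.900 in cKO 2 and at most 0.310 elsewhere, with 0.231 in cKO 1. Klrd1, the gene of the NK receptor chain CD94, was 0.464 and 0.538 in cKO 1 and cKO 2 and at most 0.348 elsewhere, and Ncr1, which encodes the NK receptor NKp46, was 0.366 in cKO 2 and at most 0.184 elsewhere, with 0.154 in cKO 1, within the control range. The sum of the 11 T and NK genes was 2.16 to 3.51 in control and 9.05, 15.4, 3.47, 3.63 and 5.55 in the cKO libraries. Since cKO 1 and cKO 2 form the other title series, which holds no control, series and level cannot be told apart for these genes. By limma 0 of the 2 tested T and NK members were called (1 at an unadjusted p below 0.05).

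**Figure D5:**
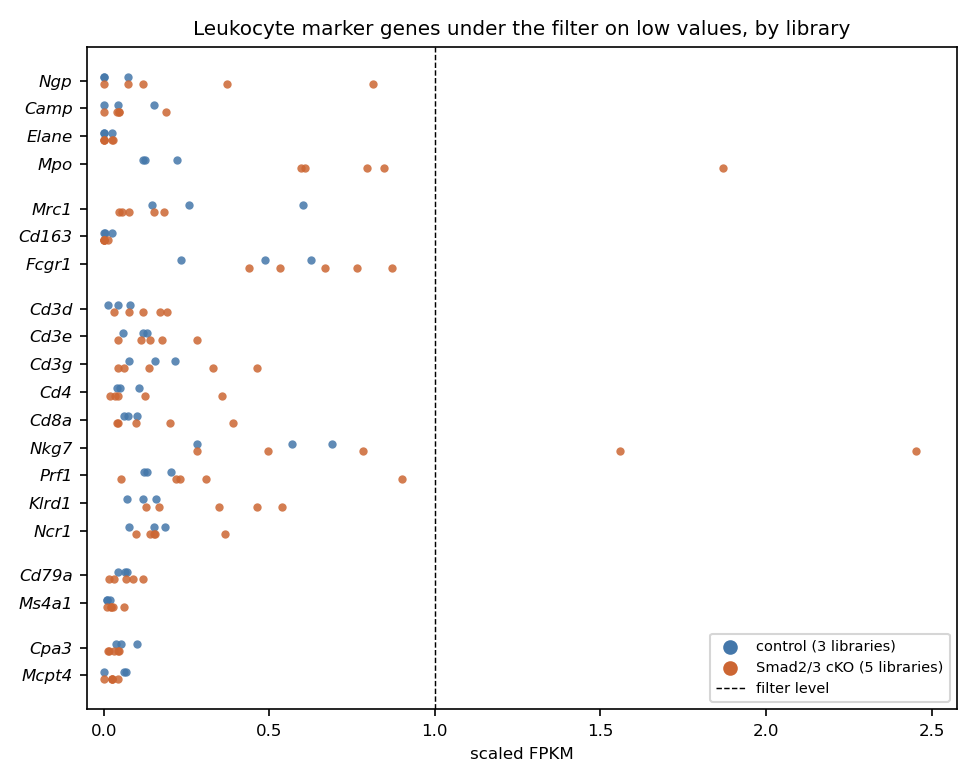
Scaled FPKM of the 20 leukocyte marker genes that did not meet the filter, in 3 control and 5 cKO libraries, with a dashed line at the filter level of 1. The granule genes Camp and Elane, the B cell genes Cd79a and Ms4a1 and the mast cell genes stay near 0, and only Mpo (in cKO 1) and Nkg7 (in cKO 1 and cKO 2) cross the line.

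The B cell genes did not go together. Cd79a and Cd79b encode the paired signalling chains of the B cell receptor, and Ms4a1 encodes CD20. Cd79b read 4.28, 6.01 and 4.58 in the controls and 4.80, 7.45, 9.70, 4.86 and 9.32 in the cKO libraries, while Cd79a was at most 0.119 and Ms4a1 at most 0.0620. The lower bound of the authors' 95% interval was above 0 in all 8 libraries for Cd79b and in 3 for Cd79a, though the proteins work as a pair. The groups overlapped for Cd79b (log2 fold change 0.43 ± 0.24, adjusted p = 0.243). Mast cell genes were also low. Cpa3, a mast cell carboxypeptidase gene, was at most 0.0999 and Mcpt4, a mast cell chymase gene, at most 0.0670, and the sum of both was 0.0385 to 0.167 in control and 0.0139 to 0.0861 in cKO. Of the 20 members not tested, 18 stayed under 1 in every library, and the lower bound of the authors' 95% interval was above 0 in all 8 libraries for 7, in some for 10 and in none for 3.

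The libraries differed within groups in the level of these genes as a whole. Control 3 was the highest control for 18 of 27 tested members (66.7%, against 32.3% of all tested genes). Among cKO libraries, cKO 4 was the lowest for 17 of 27 (63.0%, against 19.7%) and cKO 2 or cKO 3 the highest for 9 and 10. The median SD of log2 values over the 27 genes was 0.333 among controls and 0.538 among cKO libraries, against 0.125 and 0.212 over all tested genes. Genes of like level, those between the quartiles of the members' mean log2 level, had 0.123 and 0.209. The median leukocyte marker gene thus varied more between libraries of a group than the median of all genes, in control and in cKO.

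A wider list of other leukocyte genes was read in the same way. Of 129 found symbols, 47 were tested, with 5 called higher (10.6%, against 7.27% of all tested genes) and 2 lower (4.26%, against 6.98%) by limma and a median log2 fold change of 0.68. These shares of calls are near those of all genes. With an unadjusted limma p below 0.05, 18 were higher (38.3%, against 15.9%) and 3 lower (6.38%, against 15.6%). Of the 47, 37 (78.7%) had a positive log2 fold change, against 49.4% of all tested genes. Fewer than 3 controls reached 1 scaled FPKM for 9 of the 47, and none did for 2 of these. The counts thus describe the tested genes and do not speak for the whole list. Among 13 tested further genes of all leukocytes, the 1 called was Hcls1, an adaptor of antigen receptors, from 1.98 ± 0.652 to 5.97 ± 2.67 (adjusted p = 0.0473). Among 14 further neutrophil genes, Il1r2, the decoy receptor for interleukin 1, and Il1b, the interleukin itself, were called, the latter from 104 ± 23.3 to 252 ± 86.8 (adjusted p = 0.0288). These calls did not hold for every set of libraries. Hcls1 was lost without any 1 library (adjusted p = 0.0619 to 0.18) but cKO 4, and Il1r2 was lost without control 1 (0.136), control 2 (0.182), cKO 1 (0.0694), cKO 2 (0.0722), cKO 3 (0.0644) or cKO 5 (0.0547). Il1b was lost without control 1 (0.0943), control 2 (0.111), control 3 (0.0692) or cKO 1 (0.058). In the main title series alone none of these 3 was called (0.112 for Hcls1, 0.119 for Il1r2 and 0.0801 for Il1b). S100a8 and S100a9, subunits of calprotectin, were named after their values were seen. They ran from 40.1 to 108 and from 160 to 269 in control, and from 67.9 to 675 and from 208 to 1174 in cKO, and missed the threshold (adjusted p = 0.0545 and 0.054). In both, cKO 4 lay within the control range, as it did for the Csf3r and Tyrobp of the list.

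Among 14 further macrophage genes, Fcgr4, another activating Fc receptor gene, rose from 1.86 ± 1.01 to 6.46 ± 2.49 (log2 fold change 1.37 ± 0.31, adjusted p = 0.0231), and Itgam, the integrin alpha-M gene, was lower in every cKO library, at 3.57 to 7.75 against 40.5 to 61.4 (log2 fold change -2.86 ± 0.23, adjusted p = 0.000236). The Fcgr4 call was lost without control 1 (0.077), without control 2 (0.109) and within the main title series (0.0659). Itgam kept its call without each library and in that series. Like Laptm5, Itgam was higher in control while Ptprc was lower there. In every control the level of Itgam exceeded that of Ptprc (1.56 to 2.83) by far, and the part of epithelial cells in it was not tested. The 2 tested further T and NK genes, Lck and Ccl5, did not pass, and none of 13 further B cell genes was tested. Kit, a receptor of mast cells that other cell types also use, rose from 1.34 ± 0.302 to 3.55 ± 0.906 (adjusted p = 0.012), in libraries where Cpa3 and Mcpt4 were near 0. Cd74, the invariant chain of MHC class II, fell from 39.5 ± 11.4 to 18.2 ± 4.32 (adjusted p = 0.0205) and was the 1 called of 3 tested dendritic cell genes. Kit was lost without control 2 (0.0712) or control 3 (0.0531), and Cd74 without control 2 (0.104), without control 3 (0.099) and in the main title series alone (0.0504).

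Chemokines, cytokines and growth factors that draw and sustain myeloid cells were also read. Their list was chosen with earlier results of these data known, so its share of calls describes it and is no test. Of 19 tested, 8 were higher (42.1%, against 7.27% of all tested genes) and 0 lower (against 6.98%) by limma, and 13 and 0 at an unadjusted p below 0.05 (against 15.9% and 15.6% of all tested genes), with a median log2 fold change of 1.15. Il34, another ligand of the macrophage receptor CSF1R, rose from 3.55 ± 0.120 to 9.30 ± 1.98 scaled FPKM (log2 fold change 1.15 ± 0.17, adjusted p = 0.00463), while Csf1r itself did not pass. Cxcl10, a chemokine induced by interferon, rose from 4.49 ± 1.09 to 32.4 ± 4.53 (adjusted p = 4.7e-05). Ccl20, the ligand of CCR6, rose from 5.57 ± 1.81 to 146 ± 105 (adjusted p = 0.00281), and Ccl4, a chemokine gene, from 7.92 ± 3.70 to 29.4 ± 10.8 (adjusted p = 0.0124; 0.0652 without control 2). For each of these 4 genes the groups did not overlap. The summed level of this list was 339 to 421 in control and 1118 to 1995 in cKO 1, 2 and 3, 675 in cKO 4 and 1100 in cKO 5, so cKO 4 was the lowest of the cKO libraries here too.

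Markers of other cell types were read in the same libraries. The 14 stromal fibroblast markers summed to 121 to 274 in control and 60.2 to 260 in cKO. Of 10 tested, 0 were called higher (against 7.27% of all tested genes) and 1 lower (10.0%, against 6.98%). The 10 smooth muscle markers summed to 59.9 to 337 and 17.7 to 114, with 0 of 7 called (0 also at an unadjusted p below 0.05). Log2 fold changes were negative for all 10 tested stromal markers (median -0.71) and all 7 tested muscle markers (median -1.03). Over all tested genes 49.4% were positive. None of these markers was listed at 0 in all libraries. Their part in the leukocyte values was not tested. In a fit with their mean level as a term, none of the 27 members was called by limma (6 higher and 1 lower at an unadjusted p below 0.05). The median log2 fold change of the 27 was 0.576 there, against 0.53 without the term. Calls over all tested genes also fell, to 372 higher and 311 lower from 823 and 790. That fit has fewer residual degrees of freedom, so the lost calls do not measure the part of these markers. The 12 endothelial markers summed to 13.9 to 23.9 and 7.77 to 15.3. Of 6 tested, 1 was called lower (16.7%, against 6.98% of all tested genes), and 5 had negative log2 fold changes. The 7 erythroid markers found summed to 17.0 to 26.4 and 3.56 to 31.9. The erythroid genes Hbb-bs and Slc4a1 were listed at 0 in all libraries.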

How the data were processed

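RNA of uterine epithelium was sequenced in 3 control and 5 Smad2/3 cKO libraries. Per the labels' protocols, cDNA was primed with random and poly-dT primers. The tools named, per the submitters' processing notes, are bcl2fastq 1.8.3, TopHat and Cufflinks, with the build mm10; no annotation release or strand setting is named there. Deposited values are FPKM per RefSeq transcript, computed by the authors for each library, with a 95% interval and a status. The deposited coverage signal was not used. Library depth was estimated from the width of the intervals of genes with 1 transcript. Fragment numbers recovered in this way lay within 0.02 of a whole number for 76.4% to 78.8% of low values, so no count test was run, and no interval beyond the authors' is given.

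FPKM was summed per symbol (24346 symbols), and 15 symbols with a status other than OK in any library were left out, none of them a member. Each library was divided by its median ratio to a geometric mean reference (factors 0.924 to 1.06). A gene was tested where 3 or more libraries reached 1 scaled FPKM. The two-sided test was limma 3.58.1 (R 4.3.3), fitted to log2(scaled FPKM + 1) with a trended variance. P-values had Benjamini-Hochberg adjustment over all tested genes, and genes were called at an adjusted p below 0.05. This scale understates the change of low genes. Exact permutation used the 56 splits, two-sided, on scaled FPKM. Group values are mean ± SD, and fold changes carry the SE of the fit. The fit was tested on simulated data.

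The groups came from the genotype labels, and replicate numbers only name libraries. The members and lists were chosen with earlier results of these data known. All 47 members are named; of each further list, the called genes up to the 4 with the lowest adjusted p, or else its 2 most abundant tested genes. Alternatives were other scalings (no scaling, TPM, quantile), a pseudocount of 0.1, no filter or a filter at 5, genes with other status kept, other variance models, leaving out each library, the main title series alone or as a term, and a term for stromal and muscle markers.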

Additional observations from a re-analysis of the deposited data

How the results depend on the processing

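Over 20 alternatives, the median log2 fold change of the tested leukocyte marker genes stayed positive, and moved beyond the spread between cKO libraries only without a filter on low values (0.196, over all 47). TPM shifted the median of all genes to -0.20, and called 510 genes higher and 1662 lower in place of 823 and 790, so 23.5% of calls were higher in place of 51.0%; the members called lower were then 2, and Retnlg, Fcgr3, Clec7a and Laptm5 kept their direction. Array weights called 1793 genes higher and 1733 lower, and 7 members higher and 2 lower. A term for stromal and muscle markers left 372 and 311 genes, and 0 and 0 members (6 and 1 at an unadjusted p below 0.05). The median log2 fold change of the tested members was then 0.576. Quantile normalization called 2 members lower. Without a filter 1 member was higher and 0 lower (8 and 3 unadjusted). The main title series alone gave 1 and 2, and the title series as a term 1 and 0 (9 and 2 unadjusted); here the fit has fewer samples or fewer residual degrees of freedom. Leaving out each library in turn gave 238 to 935 genes higher and 176 to 892 lower, 0 to 7 members higher and 0 to 2 lower, and a median of 0.461 to 0.752. Over all genes, the lowest counts came without control 2 (238 higher) and control 3 (176 lower), and the highest, 935 and 892, without cKO 3. No member was called without control 1 or control 2 (6 and 2, and 5 and 2, unadjusted), and the 7 members higher were called without cKO 4. Clec7a was called in 16 of 19 alternatives, Fcgr3 in 13 of 20, Laptm5 in 11 of 20 and Retnlg in 10 of 20, with no change of sign. No paired analysis was possible because the labels carry no replicate numbers that groups share. Low levels limit the reading of the T cell, B cell, mast cell and granule genes, most of them under 1 scaled FPKM.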

Other observations

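Of the members with several deposited transcripts, the split between transcripts could be read for a few. For Ptprc, fragments were assigned to the transcript of 5249 bases in all 8 libraries (2.02 ± 0.702 scaled FPKM in control, SD, n = 3, and 4.65 ± 2.66 in cKO, SD, n = 5). The shortest, of 5177 bases, was listed at 0 in the 3 controls, cKO 3 and cKO 5, and read 1.68, 3.98 and 0.908 in cKO 1, 2 and 4. The longest, of 5568 bases, was listed at 0 in all libraries. For Clec7a the shorter transcript, of 2144 bases, read from 0.701, 0.770 and 1.82 in the controls to between 2.85 and 4.63 in cKO, while the longer, of 2279 bases, was 0.213 to 0.832 in control and 0 to 2.72 in cKO. These splits were made by the authors' estimate and were not tested.

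Among markers of other cell types, the adipocyte list was nearly silent (5 of 6 genes were not tested), yet Fabp4, a fatty acid carrier gene that macrophages and endothelial cells also use, was not. This gene was picked after its values were seen. The summed level of the list, set almost wholly by Fabp4, was 1.16, 0.340 and 0.313 scaled FPKM in the controls and 16.7, 9.51, 0.454, 2.72 and 20.6 in the cKO libraries. The order of the cKO libraries differed from that of the neutrophil sum, with cKO 3 lowest here and highest there. Retnlg made up most of that sum in cKO 3, and Csf3r was highest in cKO 2.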
